A study of Mus musculus with 6 samples.

Results

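The genes described are 10 members of the p53 pathway and the GADD45 family, out of 55401 genes in the deposited expression table: Trp53, Mdm2, Cdkn1a, Ccng1, Zmat3, Phlda3, Eda2r, Gadd45a, Gadd45b and Gadd45g. They were found by matching each Ensembl gene identifier to its symbol, and all 10 were in the table. The set was put together partly because Gadd45a was higher after metformin in these same libraries, to ask whether other p53 targets moved with it. The metformin contrast of the 10 genes is therefore given as a description, without a test. Tests were made only for genes outside the 10.

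The study profiled mRNA of mouse cultures that the labels call female germline stem cells (FGSCs), a cultured ovarian line, by RNA-seq. All 6 libraries came from C57BL/6 cells of more than 20 passages, grown on growth-arrested STO feeder fibroblasts in a serum medium with LIF, EGF, bFGF and GDNF. The control group, labelled as given nothing, had 3 libraries, and the metformin group, given 1 μM metformin for 24 h, had 3. Nothing in the labels says that the repeats of a group were separate cultures, so the spread between libraries, and every p-value that rests on it, may be technical.

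Values are FPKM, which count fragments per kilobase of transcript, scaled to the depth of the library, and can be compared between genes because they are set per length. The libraries held an estimated 13400000 to 14000000 fragments, so that 3 fragments on a transcript of 1 kb equal 0.214 to 0.224 FPKM, and these figures cover counting error only. Markers did not match the labelled cell type. Of 15 germ cell markers, 9 were at 0 in every library, among them Dazl, Dppa3 and Nanos2, and 1 had a mean of at least 1 FPKM. Of 15 blood and mast cell markers, 9 had a mean of at least 1 FPKM, led by Cpa3, a mast cell protease, with a mean of 352 FPKM. The others were mast cell genes that did not reach that mean: Fcer1a, Tpsb2 and Mcpt4 were at 0, and Hdc, Cma1 and Ms4a2 were below it. The summed level of the blood and mast cell list was 824.79 to 858.84 FPKM in control and 800.16 to 824.68 FPKM in metformin libraries. The germ cell list summed to 1.56 to 2.67 FPKM in control and 1.55 to 1.83 FPKM in metformin libraries. Of 12 fibroblast markers that feeder cells would carry, none reached a mean of 1 FPKM, with Lum at 0 and sums of 0.81 to 1.04 FPKM in control and 0.8 to 0.85 FPKM in metformin libraries. Of 5 granulosa cell markers, 4 were at 0, and the list summed to 0.36 to 0.98 FPKM in control and 0.6 to 0.65 FPKM in metformin libraries. In bulk libraries such as these, fewer cells of a type and less RNA per cell cannot be told apart, and the part of cell makeup in the results on the 10 genes was not tested.

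p53, encoded by Trp53, is a transcription factor that is held at a low protein level by the ubiquitin ligase MDM2 and accumulates when DNA is damaged or ribosome assembly or nutrient supply is disturbed. It is controlled mainly at the level of the protein, and its activity is commonly read from its target genes, which arrest the cell cycle, trigger apoptosis, repair DNA or feed back on p53 itself. The GADD45 proteins are small stress sensors that bind PCNA, cyclin-dependent kinase 1 and the kinase MAP3K4. Gadd45a is a classical p53 target that is also induced without p53, Gadd45b is known as a target of NF-kappaB, and Gadd45g is induced mainly by cytokines and differentiation signals. Gadd45a was first found as a transcript induced by growth arrest and DNA damage together with Ddit3 (GADD153) and Ppp1r15a (GADD34), which belong to the integrated stress response, the arm of gene expression led by the factor ATF4.

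The DNA upstream of the members is shown to give the matches to a short p53 motif near their starts. RefSeq promoters on GRCm38.p6, from 250 bases before to 50 bases after each start, were given for 9 of the 10 members, with a second start for Cdkn1a. Zmat3 had no entry. The motif searched was the 10-base p53 decamer, which reads the same on both strands; p53 binds pairs of such decamers. At least 1 decamer was found in 5 of these 9 members, namely Trp53, Mdm2, Cdkn1a, Ccng1 and Gadd45a, and in 8.36% of all 32851 promoter windows of 300 bases. The 3 windows printed in full belong to Gadd45a and Ccng1, the members whose control and metformin values did not overlap, and to Cdkn1a, the one member with a pair of decamers. Capitals mark the decamers, and each window reads 5′ to 3′ in the direction of its gene. They lie at chr6:67037358-67037657 on the minus strand for Gadd45a, at chr11:40755237-40755536 on the minus strand for Ccng1 and at chr17:29090729-29091028 on the plus strand for the upstream start of Cdkn1a.
Gadd45a: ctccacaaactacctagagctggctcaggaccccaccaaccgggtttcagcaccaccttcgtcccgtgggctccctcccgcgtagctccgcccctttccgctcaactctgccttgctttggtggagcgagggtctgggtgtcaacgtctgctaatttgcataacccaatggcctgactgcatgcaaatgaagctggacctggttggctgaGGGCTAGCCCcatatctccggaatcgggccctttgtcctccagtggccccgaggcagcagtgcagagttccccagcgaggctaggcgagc
Ccng1: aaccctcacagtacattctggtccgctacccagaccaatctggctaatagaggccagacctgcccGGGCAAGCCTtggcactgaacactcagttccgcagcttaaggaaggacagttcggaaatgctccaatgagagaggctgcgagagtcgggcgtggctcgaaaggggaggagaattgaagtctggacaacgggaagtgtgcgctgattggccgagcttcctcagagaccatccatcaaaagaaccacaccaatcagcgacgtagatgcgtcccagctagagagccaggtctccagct
Cdkn1a: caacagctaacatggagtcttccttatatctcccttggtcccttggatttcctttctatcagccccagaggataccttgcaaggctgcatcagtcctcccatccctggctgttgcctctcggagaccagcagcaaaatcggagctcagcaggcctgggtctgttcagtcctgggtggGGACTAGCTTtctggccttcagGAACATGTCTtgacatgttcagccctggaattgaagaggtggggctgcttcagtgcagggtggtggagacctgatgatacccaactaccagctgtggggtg

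The decamer of Gadd45a began 40 bases before the start and that of Ccng1 185 bases before it. The decamers of Cdkn1a began 73 and 51 bases before its upstream start and were 12 bases apart. Only exact matches were marked. The 10 bases directly after the second decamer, tgacatgttc, depart from the motif in their first base alone, so a closer pair was not counted. The window of the other Cdkn1a start held no decamer. A pair of decamers with a gap of at most 13 bases was present in 24 of the 32851 windows, or 0.073%. In Trp53 and Mdm2 the decamer began 75 and 186 bases before the start, at chr11:69580284-69580293 on the plus strand and chr10:117710935-117710944 on the minus strand, and is printed in capitals with 10 bases on either side.
Trp53: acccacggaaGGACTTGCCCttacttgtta
Mdm2: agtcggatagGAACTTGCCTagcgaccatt

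The motifs TGATGNAA, a composite site of C/EBP and ATF factors, and TGACGT, the core of ATF and CREB sites, were searched on both strands. TGATGNAA was in 3.97% of all windows and, among the members, in the window of Gadd45g alone, on the minus strand 101 bases before the start at chr13:51846574-51846581, shown in capitals with its flanks.
Gadd45g: gccgcctcatTTGCATCAgaaagcgggc

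TGACGT was in 7.51% of all windows and in none of the members' windows. These matches say only that the letters are present in the window. Sequence outside the windows, introns among it, was not searched for sites. Binding of any factor was not measured here.

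Expression of the 10 genes ranged over a wide scale. In control libraries the mean level was highest for Ccng1 at 73.5 FPKM, followed by Trp53 at 47.7, Cdkn1a at 28.9, Mdm2 at 14.9, Gadd45g at 14.2, Gadd45b at 8.71, Zmat3 at 4.16 and Gadd45a at 2.88 FPKM. Mdm2 and Gadd45g could not be ordered, because their control libraries overlapped, and the same held for Phlda3 and Eda2r, which were at or near 0. Every other pair of neighbours in this order was separated in all 3 control libraries. The limit for entering the fit was 1 FPKM on average over all libraries, which 8 members and 10661 genes of the whole table reached. The plot of the 10 genes gives each library's level on an axis of its own for every gene.

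**Figure D1:**
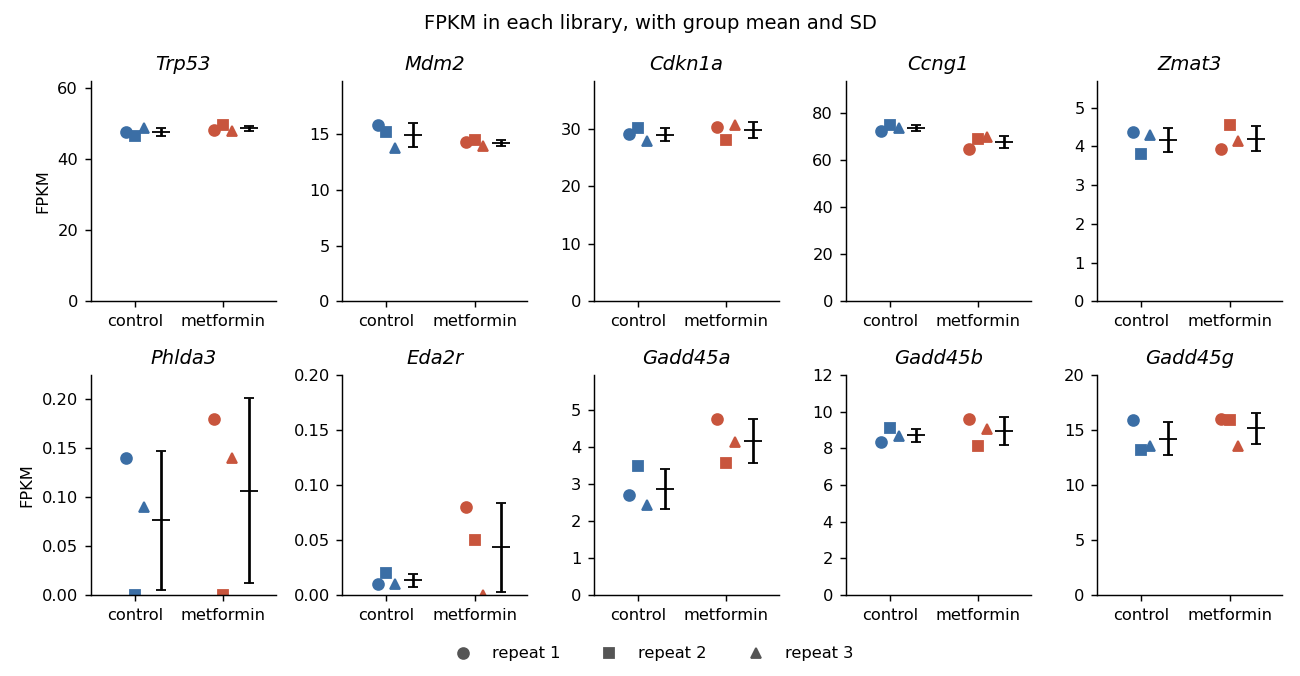
Expression of each of the 10 genes in FPKM in the 3 control and 3 metformin libraries, 1 point per library, with the group mean and SD (n = 3) as a black bar. Each gene has its own linear axis from 0. Gadd45a lies above the control range in all 3 metformin libraries and Ccng1 below it in all 3, whereas the groups overlap for the other members that reached a mean of 1 FPKM.

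Trp53 (ENSMUSG00000059552; chr11:69580359-69591873, plus strand, GRCm38) read 47.77, 46.53 and 48.88 FPKM in control and 48.37, 49.66 and 48.11 FPKM in metformin libraries. The groups overlapped, with means of 47.7 ± 1.18 and 48.7 ± 0.830 FPKM (SD, n = 3). The log2 difference of metformin over control, on the log2(FPKM + 1) scale used throughout, was 0.03 with a standard error of 0.03. The p53 transcript was thus abundant, at the 88.4th percentile of the genes tested, and its difference was about the size of its spread between libraries.

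Mdm2 (chr10:117688875-117710758, minus strand), the ubiquitin ligase that p53 induces and that in turn removes p53, read 15.82, 15.24 and 13.77 FPKM in control and 14.28, 14.46 and 13.95 FPKM in metformin libraries. The 3 metformin values lay within the control range. The log2 difference was −0.06 (SE 0.05).

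Cdkn1a (chr17:29090976-29100727, plus strand) encodes p21, the inhibitor of cyclin-dependent kinases through which p53 arrests the cycle. Its values were 29.02, 30.03 and 27.76 FPKM in control and 30.36, 28.08 and 30.61 FPKM in metformin libraries, and the groups overlapped. The log2 difference was 0.04 (SE 0.04), with means of 28.9 ± 1.14 and 29.7 ± 1.39 FPKM (SD, n = 3). An antisense gene, ENSMUSG00000117050, lies inside Cdkn1a at chr17:29093416-29094461 on the minus strand, with a mean of 1.10 FPKM. The strand setting of the counting was not given in the sources used here, so reads of the 2 genes cannot be told apart.

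Ccng1 (chr11:40748552-40755311, minus strand) encodes cyclin G1, a p53 target that brings a phosphatase to MDM2. It read 72.24, 74.78 and 73.47 FPKM in control and 64.64, 68.75 and 69.56 FPKM in metformin libraries. All 3 metformin libraries lay below all 3 control libraries, opposite to the order seen for Gadd45a, and the nearest libraries were 2.68 FPKM apart. Means were 73.5 ± 1.27 and 67.7 ± 2.64 FPKM (SD, n = 3), a ratio of 0.920, and the log2 difference was −0.12 (SE 0.03). At this level, with an estimated 3178 to 3624 fragments a library, counting error was small, at 1.68% of the control mean. Leaving out any 1 library or changing the scaling kept the log2 difference between −0.14 and −0.09.

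Zmat3 (chr3:32334792-32366014, minus strand), an RNA-binding zinc finger protein and p53 target, read 4.38, 3.8 and 4.3 FPKM in control and 3.92, 4.55 and 4.14 FPKM in metformin libraries. The groups overlapped and the log2 difference was 0.01 (SE 0.07), and it was below 0 without control library 2 or metformin library 2 (−0.04 each). Phlda3 (chr1:135766119-135769136, plus strand), a p53 target that restrains the kinase AKT, read 0.14, 0 and 0.09 FPKM in control and 0.18, 0 and 0.14 FPKM in metformin libraries. Eda2r (chrX:97333840-97377216, minus strand), a receptor of the tumour necrosis factor family, read 0.01, 0.02 and 0.01 FPKM in control and 0.08, 0.05 and 0 FPKM in metformin libraries. The last pair rests on 0 to 4 and 0 to 7 estimated fragments a library, and a difference between the groups was not detectable at this depth.

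Gadd45a (ENSMUSG00000036390; chr6:67035096-67037457, minus strand) read 2.71, 3.49 and 2.43 FPKM in control and 4.77, 3.57 and 4.15 FPKM in metformin libraries. All 3 metformin libraries lay above all 3 control libraries, but metformin library 2 was only 0.08 FPKM above control library 2, a gap of about 2.0 fragments. Means were 2.88 ± 0.549 and 4.16 ± 0.600 FPKM (SD, n = 3), a ratio of 1.45. The log2 difference was 0.42 (SE 0.12), at the 99.3rd percentile of all genes tested. Gadd45a had the lowest level among the 8 members fitted and was also variable between libraries of one group, with a residual spread at the 92.2nd percentile of all genes. Its estimated 60 to 118 fragments a library give a counting error of 12.0% of the control mean, while the observed coefficient of variation was 19.1% in control and 14.4% in metformin libraries. Without control library 3 the log2 difference was 0.33, and without control library 2 it was 0.53. Its sign could not change when 1 library was left out, since the groups did not overlap. E230016M11Rik, on the opposite strand, overlaps Gadd45a by position and had 0.36 ± 0.089 FPKM in control and 0.373 ± 0.119 FPKM in metformin libraries.

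Gadd45b (chr10:80930073-80932204, plus strand) read 8.36, 9.08 and 8.69 FPKM in control and 9.60, 8.11 and 9.07 FPKM in metformin libraries. The groups overlapped, with the highest and the lowest value both in the metformin group. Its log2 difference was 0.03 (SE 0.06), and it was −0.02 without metformin library 1. Gadd45g (chr13:51846678-51848468, plus strand) read 15.96, 13.22 and 13.53 FPKM in control and 16.04, 15.98 and 13.53 FPKM in metformin libraries. Control library 1 sat with the higher metformin libraries and metformin library 3 with the lower control libraries, and the log2 difference was 0.09 (SE 0.09).

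Gadd45a was the minor member of its family in these cultures. It made up 10.0%, 13.5% and 9.86% of the summed GADD45 FPKM in control and 15.7%, 12.9% and 15.5% in metformin libraries. The ranges overlapped, since metformin library 2 was below control library 2, and the means were 11.1% ± 2.08 and 14.7% ± 1.56 (SD, n = 3). The summed level of the 3 genes was 25.8 ± 1.19 FPKM in control and 28.3 ± 1.91 FPKM in metformin libraries. Most GADD45 transcript came from Gadd45g in both groups.

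**Figure D2:**
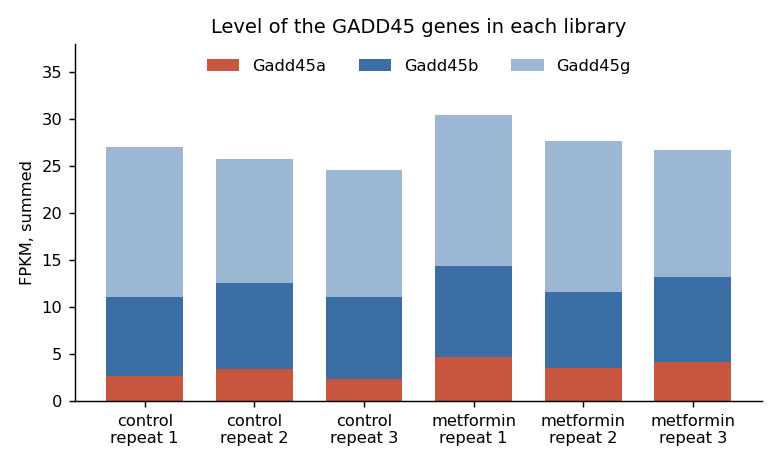
FPKM of Gadd45a, Gadd45b and Gadd45g stacked in each of the 6 libraries, on an axis that starts at 0. Gadd45g is the largest share in every library, and Gadd45a makes up 9.86% to 13.5% of the sum in control and 12.9% to 15.7% in metformin libraries.

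Of the 8 members that reached 1 FPKM, 6 had a positive and 2 a negative log2 difference, with a median of 0.03 beside 0.0041 for all genes tested. The groups did not overlap for 2 of the 8, beside 17% of all genes tested (8.89% above and 8.1% below control). Nothing is read from these counts, since the set was chosen on this contrast. Cdkn1a, Mdm2 and Trp53, for which counting error was between 1.94% and 3.36% of the control mean, had log2 differences between −0.06 and 0.04. Ccng1, with a smaller counting error of 1.68%, had −0.12 without overlap. The differences of the 8 genes with their errors are shown in the plot of fold changes.

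**Figure D3:**
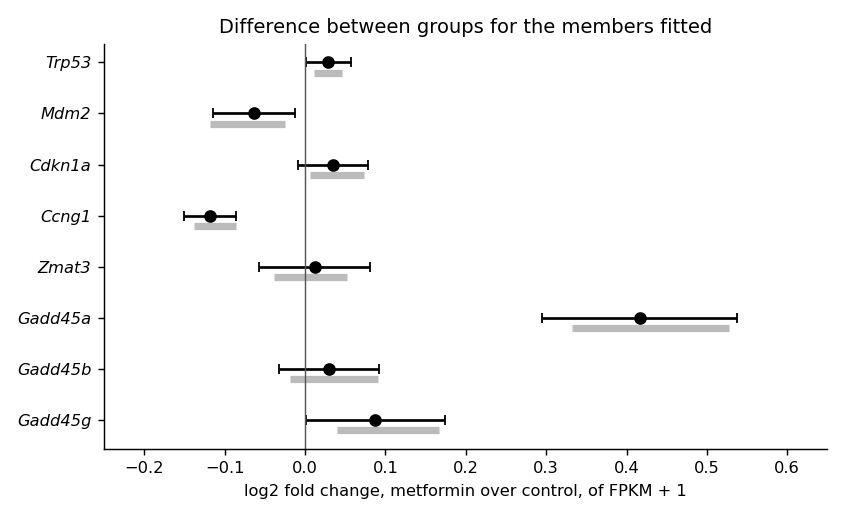
Log2 difference of metformin over control, on the log2(FPKM + 1) scale, for the 8 members with a mean of at least 1 FPKM; points and black bars give the estimate and its standard error, and grey bars the range over the alternative settings. Gadd45a stands at 0.42 and Ccng1 at −0.12, and the other 6 genes lie between −0.06 and 0.09.

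The p53 targets outside the 10 showed no gene that passed the test. Of 56 such genes in the table, 39 reached 1 FPKM, and 24 had a positive and 15 a negative log2 difference, with a median of 0.01. By limma with Benjamini-Hochberg adjustment over all genes, 0 of the 39 had an adjusted p under 0.05, beside 0.0281% of the 10661 genes tested. At that share, 0 calls in a list of this size, or in the shorter lists below, say nothing about the list. An unadjusted p under 0.05 was seen for 4, which is 10.3% beside 10.8% of all genes tested (6.03% higher and 4.81% lower). The 4 were Sesn2, Bbc3 and Steap3, which were higher, and Trp53inp1, which was lower. For 5 of the 39 the groups did not overlap, 4 higher and 1 lower, whereas 17% of all genes did not overlap.

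Among genes of cell cycle arrest, 6 of 9 did not reach 1 FPKM. The other 3 were Plk3, a stress-activated polo-like kinase, with a log2 difference of 0.12, Gtse1, which carries p53 out of the nucleus, with 0.06, and Ckap2, a spindle protein, with −0.10. None passed the test, beside 0.0281% of all genes, with adjusted p of 0.600, 0.596 and 0.472 in limma.

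Apoptosis genes split in direction, with 8 positive and 4 negative of 12 tested and a median of 0.02. Bbc3, which encodes the BH3-only protein PUMA, read 10.61, 10.71 and 12.15 FPKM in control and 13.02, 12.77 and 12.83 FPKM in metformin libraries. Its log2 difference was 0.19 (SE 0.05, limma adjusted p = 0.346). Trp53inp1, a nuclear protein that promotes p53 activity, read 4.03, 4.11 and 3.89 FPKM in control and 2.92, 3.56 and 3.48 FPKM in metformin libraries, a log2 difference of −0.22 (SE 0.07, limma adjusted p = 0.377). Both thus had groups that did not overlap, in opposite directions, and neither passed the test. Fas, the death receptor, was also higher without overlap, at 1.33 FPKM in control and 1.65 FPKM in metformin libraries. Its log2 difference was 0.18 (limma adjusted p = 0.504). Of the 12 genes tested, 2 were thus higher and 1 lower without overlap, beside 8.89% and 8.1% of all genes.

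No repair gene passed the test, beside 0.0281% of all genes. Among the 4 tested, the differences that were furthest from 0 were those of Rrm2b, a p53-induced ribonucleotide reductase subunit, at −0.09, Xpc, the damage sensor of nucleotide excision repair, at 0.06, and Polk, a translesion polymerase, at 0.03. Their limma adjusted p was 0.708, 0.781 and 0.936. Rrm2b and Polk overlap other expressed genes, Gm3362 on the same strand and Gm17622 on the opposite strand.

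Among 8 tested p53 targets of metabolism and redox control, Sesn2 stood apart from the others. Sesn2 encodes sestrin 2, a leucine sensor and inhibitor of mTORC1 that is a target of both p53 and ATF4. It read 13.72, 12.55 and 11.98 FPKM in control and 17.8, 17.73 and 16.26 FPKM in metformin libraries, with no overlap. Its log2 difference of 0.41 (SE 0.06) was close to that of Gadd45a, but did not pass the test (limma adjusted p = 0.201, and 0.0716 to 0.438 over the alternatives). Without a pseudocount, the ratio of means was 1.45 for Gadd45a and 1.35 for Sesn2. Sesn1, the paralog of Sesn2 and a p53 target, named after its values were seen, had a log2 difference of 0.03 (limma adjusted p = 0.887). Steap3, an iron reductase, had 0.09 (limma adjusted p = 0.397) and Ulk1, a kinase that starts autophagy, −0.09 (limma adjusted p = 0.683).

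Targets of feedback, signalling and other functions had a median of 0.0050 over the 12 tested, with 7 positive and 5 negative. Lif, the cytokine leukemia inhibitory factor, had a log2 difference of −0.12, Dcxr, a xylulose reductase, 0.11 and Rap2b, a small GTPase, −0.07. None of the 3 passed the test, beside 0.0281% of all genes, with limma adjusted p of 0.577, 0.684 and 0.757.

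Regulators and cofactors of p53 mostly had negative differences, and none passed the test. Of 14 tested, 12 had a negative and 2 a positive log2 difference, with a median of −0.06. In limma 0 had an adjusted p under 0.05, beside 0.0281% of all genes. An unadjusted p under 0.05 was seen for 2, Chek1 and Rpl5, both lower. The 2 genes are 14.3% of those tested, beside 10.8% of all genes. The groups did not overlap for 6 genes that were lower and 1 that was higher, whereas over all genes 8.1% were lower and 8.89% higher without overlap. Chek1, the checkpoint kinase that acts below ATR, read 14.47, 15.06 and 14.64 FPKM in control and 13.87, 13.19 and 13.97 FPKM in metformin libraries, a log2 difference of −0.10 (SE 0.04, limma adjusted p = 0.394). Chek2, the kinase below ATM, and Sirt1, a deacetylase of p53, also had −0.10 each, with limma adjusted p of 0.673 and 0.467. Mdm4, the partner of MDM2 that blocks p53 activity, was at 19.6 and 19.2 FPKM, a log2 difference of −0.02 (limma adjusted p = 0.810), and was named after its values were seen. Cdkn2a, whose ARF product frees p53 from MDM2, was at 0, 0.06 and 0 FPKM in control and 0, 0 and 0.19 FPKM in metformin libraries.

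Cell cycle genes that are lowered when p53 and p21 are active, through the DREAM repressor complex, were all expressed. Of 20 tested, 9 had a positive and 11 a negative log2 difference, with a median of −0.02. In limma 0 had an adjusted p under 0.05, beside 0.0281% of all genes. The 3 genes with an unadjusted p under 0.05 were all lower, and are 15% of the list beside 10.8% of all genes (4.81% lower). The groups did not overlap for 4 genes that were lower and 2 that were higher, beside 8.1% lower and 8.89% higher over all genes. Mki67, the proliferation marker Ki-67, read 63.89, 62.27 and 62.79 FPKM in control and 60.34, 57.06 and 58.21 FPKM in metformin libraries, a log2 difference of −0.10 (SE 0.03, limma adjusted p = 0.346). Ccnb1, the mitotic cyclin B1, and Top2a, a topoisomerase, each had −0.07, with limma adjusted p of 0.439 and 0.363. E2f1, a factor that drives entry into S phase, lay furthest from 0 at 0.16 (limma adjusted p = 0.563), with overlapping groups.

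No partner of the GADD45 proteins and no kinase below them passed the test. Of 8 tested, 6 had a positive and 2 a negative log2 difference, with a median of 0.03. In limma 0 had an adjusted p under 0.05, beside 0.0281% of all genes. An unadjusted p under 0.05 was seen for 2, or 25% beside 10.8% of all genes. Map2k3, a kinase that activates p38, read 49.14, 49.42 and 49.59 FPKM in control and 52.35, 52.24 and 50.72 FPKM in metformin libraries, a log2 difference of 0.07 (SE 0.02, limma adjusted p = 0.392). Pcna, the sliding clamp that GADD45 proteins bind, was at 170.2 and 161.0 FPKM, a log2 difference of −0.08 (SE 0.03, limma adjusted p = 0.439). Gadd45gip1, a mitochondrial ribosomal protein first found as a GADD45 binding protein, had −0.07 (limma adjusted p = 0.617).

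Values of the other GADD genes and of the integrated stress response are set beside Gadd45a, since they were known to rise in these libraries when the lists were written and give no independent evidence. Ddit3, which encodes CHOP, rose from 7.33 ± 0.435 to 12.9 ± 0.531 FPKM (SD, n = 3), by 0.74 on the log2 scale (SE 0.05, limma adjusted p = 0.00453). Ddit3 overlaps Mars, on the other strand, by 68 bases. Ppp1r15a, a phosphatase subunit that acts on eIF2alpha, was at 9.62 ± 0.636 and 12.5 ± 0.376 FPKM (SD, n = 3), a log2 difference of 0.35 (SE 0.05, limma adjusted p = 0.223). Gadd45a, at 0.42, thus lay between them in size, with a standard error of 0.12 against 0.05 for each of the others. Over the 17 stress response genes, 14 were tested, and 3 of the 14 passed the test, all higher, beside 0.0281% of all genes. These were Ddit3, Trib3, a pseudokinase, with 1.17 (SE 0.04, limma adjusted p = 0.000127) and Chac1, which degrades glutathione, with 1.18 (SE 0.07, limma adjusted p = 0.00197). All 14 had a positive log2 difference, with a median of 0.19, and this list shares Sesn2 with the p53 targets.

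**Figure D4:**
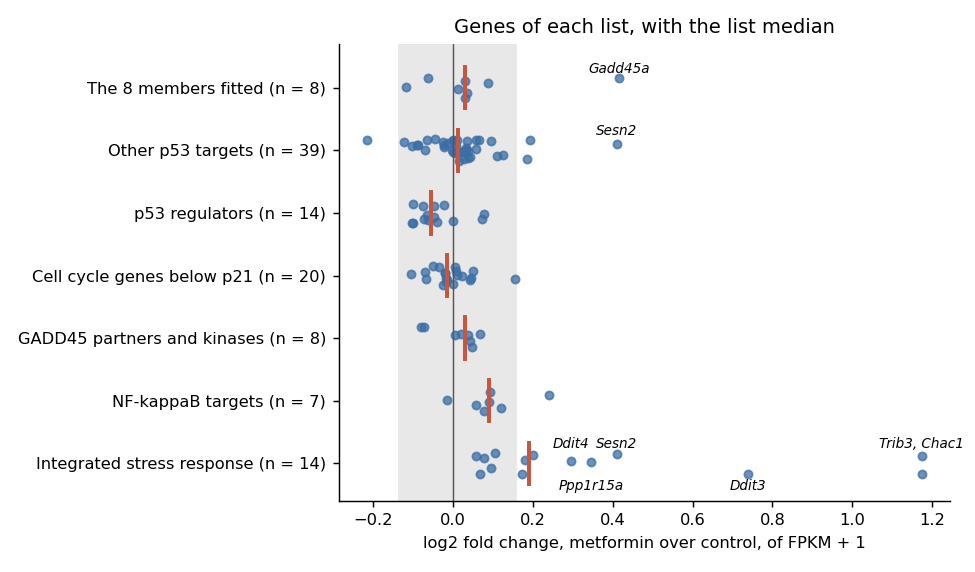
Log2 difference of metformin over control, on the log2(FPKM + 1) scale, for every tested gene of each list, with 1 point per gene and a bar at the list median; the grey band runs from the 5th to the 95th percentile of all 10661 genes tested, −0.13 to 0.16. Most p53 targets and regulators lie within the band, as most genes do by the way it is drawn. Gadd45a, Sesn2, Bbc3 and Fas lie to its right and Trp53inp1 to its left, and of the lists drawn, in which Ddit3 and Ppp1r15a are part of the integrated stress response, that list has the median furthest from 0, at 0.19.

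The genes whose pattern over the 6 libraries was nearest to that of Gadd45a were Gm10073, Gm14165 and ENSMUSG00000117458, with root mean square differences of 0.0903, 0.139 and 0.139 on the log2 scale from the control mean. Gm10073 read 15.92, 19.28 and 15.47 FPKM in control and 24.79, 19.67 and 19.7 FPKM in metformin libraries. Like Gadd45a, it was highest in metformin library 1, and control library 2 was its highest control. Gm10073 was picked for its likeness to Gadd45a, so this order gives no further evidence. The likeness is a description over 6 libraries. None of the nearest 3 is in the lists of other p53 targets or stress response genes. Those lists hold only 39 and 14 of the 10661 genes tested, so nothing is read from this.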

How the data were processed

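RNA-seq of 3 control and 3 metformin libraries was analysed from 1 table. Its values are FPKM as deposited by the authors, for 55401 Ensembl genes, and already carry their mapping, counting and scaling for length and depth. The submitters' processing notes name HISAT2, DESeq2 and mm9, whereas gene positions in the table are those of GRCm38: 46.6% of 23293 genes shared a start or end with RefSeq GRCm38.p6, and 1.67% of 32589 genes with GENCODE M1 on NCBIM37. The counting tool was not given in the sources used here. The labels name a stranded KAPA kit and the study's methods another kit.

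Groups came from the labels. The 10661 genes that averaged 1 FPKM or more were fitted as log2(FPKM + 1) with limma 3.58.1 in R 4.3.3 (lmFit, trended eBayes, two-sided p, Benjamini-Hochberg adjustment over all genes fitted, threshold 0.05). The pseudocount of 1 understates changes of low genes. DESeq2 was not run, since it needs counts. The code was tested on simulated data. Whole-fragment steps of genes under 400 bp gave the depth, 13400000 to 14000000 fragments per library, and fragments per gene were estimated with GENCODE M1 exon lengths. Replicate pairs differed by an SD of 0.191 to 0.208 on the log2 scale, and no library was a copy of another.

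Members and gene lists were chosen with earlier results of these data known. Named are the 10 members, genes of each other list with an adjusted p under 0.05 or otherwise the 3 with the largest absolute log2 difference, the 3 genes nearest to Gadd45a, and overlapping genes that averaged 1 FPKM or more; other names were chosen after their values were seen. Of 57 other p53 targets, Pvt1 was not matched. Promoters are RefSeq windows on GRCm38.p6. Alternatives were a pseudocount of 0.1, no filter, a mean of at least 10 FPKM, equal library sums, quantile normalization, spreads without the trend, a replicate block, each library left out, and, added after seeing the data, median centring. Python 3.11.15 and matplotlib 3.10.9 were used.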

Additional observations from a re-analysis of the deposited data

How the results depend on the processing

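The count of genes with an adjusted p under 0.05 in limma was 3 in the reported setting, 7 with no filter on low values (4 higher and 3 lower of 22809 genes), 2 at a mean of at least 10 FPKM and 3 to 4 with 1 library left out. Deviations of libraries with the same repeat number correlated at −0.0317, 0.0181 and 0.0479, beside −0.0504 to 0.0300 for libraries of different number. With so few libraries this cannot settle whether same-numbered libraries were handled as pairs. With the replicate block 2 genes were called, Ddit3 losing its call (adjusted p = 0.0833), and the p53 regulators had 0 genes with an unadjusted p under 0.05 in place of 2.

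The median log2 difference of the p53 targets outside the 10 members, 0.0118, was 0.0265 at a mean of at least 10 FPKM and −0.0022 to 0.0203 with 1 library left out, below 0 without metformin library 1. With 1 library left out, that of the p53 regulators, −0.0559, ran from −0.0644 to −0.0387, that of the cell cycle genes, −0.0162, from −0.0181 to −0.000486, and that of the GADD45 partners, 0.0292, from −0.0039 (without control library 2) to 0.0455. The stress response median, 0.191, was 0.243 with a pseudocount of 0.1 and 0.172 to 0.222 with 1 library left out. The NF-kappaB median, 0.0903, was 0.111 with that pseudocount, 0.0565 at a mean of at least 10 FPKM and 0.0584 to 0.114 with 1 library left out. The median of the members, 0.0294, ran from 0.0190 to 0.0337 with 1 library left out. The causes of these shifts were not tested. Low levels limit Gadd45a, Phlda3 and Eda2r most.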

Other observations

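Targets of NF-kappaB, the pathway to which Gadd45b answers, were mostly above control without any call. Of 9 such genes 7 were tested, and 6 had a positive and 1 a negative log2 difference, with a median of 0.09 beside 0.0041 for all genes. By limma 0 had an adjusted p under 0.05, beside 0.0281% of all genes. An unadjusted p under 0.05 was seen for 2, both higher, which is 28.6% beside 10.8% of all genes (6.03% higher). Nfkbia, the inhibitor that NF-kappaB induces against itself, read 7.23, 6.3 and 8.53 FPKM in control and 9.16, 8.89 and 8.41 FPKM in metformin libraries, a log2 difference of 0.24 (SE 0.09, limma adjusted p = 0.423). The groups overlapped through control library 3. Nfkbie, a second inhibitor of this family, had 0.12 (limma adjusted p = 0.423) and Relb, a subunit of the factor, 0.09 (limma adjusted p = 0.723). Gadd45b itself had 0.03.

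Among the other p53 targets, 46 of 57 had a RefSeq promoter window, and 13 of the 46 held at least 1 p53 decamer, beside 5 of the 9 members with a window. TGATGNAA was in 2 of the 46 and TGACGT in 9. These shares are over genes with up to several starts each, whereas the 8.36% of all windows that hold a decamer is over single windows, so the figures were not compared by a test.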
